A study of Mus musculus with 25 samples.

Results

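Chemokine expression in the forming secondary palate was described for 8 genes, the ligands Cxcl12, Cxcl13, Cxcl14, Cxcl16, Ppbp, Ccl2 and Ccl12 and the receptor Cxcr4. They were chosen by gene symbol from the 37406 genes of the processed table, and each had a row in it. The samples were wild type CD1 mouse embryos at E14.5, soon after the palatal shelves meet in the midline, with no treatment. Anterior and posterior palate were each divided by laser capture microdissection, in which a laser cuts chosen areas from tissue sections, into compartments named medial, lateral, oral and nasal. Of the 25 RNA-Seq libraries, 13 were anterior and 12 posterior, from 8 compartments, with 4 replicates of anterior nasal and 3 of each other compartment. The study calls the replicates biological, but which embryos went into a library was not given in the sources used here, and a captured area holds every cell type lying in it.

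Chemokines are small secreted proteins that guide migrating cells through receptors coupled to G proteins. Cxcl12, made by many mesenchymal and stromal cells, acts through Cxcr4, which is carried by endothelial, blood and some neural crest derived cells, and it is also taken up by the atypical receptor Ackr3. Cxcl13 attracts B cells in lymphoid organs through Cxcr5. Cxcl14 is a CXC ligand of epithelia and mesenchyme, and Cxcl16 is a membrane-bound ligand of Cxcr6. Ccl2 and Ccl12 attract monocytes through Ccr2, and Ppbp is the precursor of platelet chemokines that act on Cxcr2.

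Values are RPKM, in which the reads of a gene are divided by its transcript length and by the depth of the library. Log2 differences are differences of mean log2(RPKM + 0.1), and adjusted p-values are from limma with Benjamini-Hochberg adjustment over all genes tested. A gene is called where its adjusted p was under 0.05. The depth implied by the spacing of low values was 1.64 to 6.56 M reads per library. This is the total behind the RPKM values, for which duplicate and multiply aligned reads were removed. The paper states a larger average number of sequenced reads per sample. Markers of palate mesenchyme summed to 656 RPKM or more in every library, while those of epithelium summed to 20.2 to 140 RPKM. In bulk samples such as these, fewer cells of a type and less RNA per cell cannot be told apart. The 8 sequencing runs cut across the groups. Medial and lateral libraries of the anterior palate shared no run, nor did those of the posterior palate, so run and compartment cannot be told apart in those 2 comparisons, whereas every anterior compartment shared a run with its posterior counterpart.

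Start regions are printed for the 4 genes called over the 8 compartments, Cxcl12, Cxcl14, Cxcl13 and Ppbp, and for Ccl12, which like Ppbp had its highest mean in posterior medial tissue but was not called. Each is the 60 bases before the RefSeq transcription start (GRCm38.p6), 5′ to 3′ on the gene's strand, with the letters TATAAA, the core of a TATA box, in capitals.
Cxcl12 (chr6:117168475-117168534, plus strand): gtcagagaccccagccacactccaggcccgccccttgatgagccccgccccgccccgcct
Cxcl14 (chr13:56296552-56296611, minus strand): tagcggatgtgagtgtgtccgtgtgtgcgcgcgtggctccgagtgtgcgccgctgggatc
Cxcl13 (chr5:95956879-95956938, plus strand): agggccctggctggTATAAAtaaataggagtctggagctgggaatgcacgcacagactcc
Ppbp (chr5:90768458-90768517, plus strand): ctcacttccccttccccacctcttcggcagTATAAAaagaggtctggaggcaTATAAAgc
Ccl12 (chr11:82101785-82101844, plus strand): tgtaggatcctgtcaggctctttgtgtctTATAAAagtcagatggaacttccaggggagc
Promoters were matched for 6 of the 8 genes, and for Ccl2 and Cxcl16 none was used. The letters TATAAA lay in this window in 4 of the 6, the fourth being Cxcr4, and in neither Cxcl12 nor Cxcl14. Searched on both strands, they lay in the window of 3.92% of 32851 RefSeq promoters. A match is a description of the letters only.

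**Figure D1:**
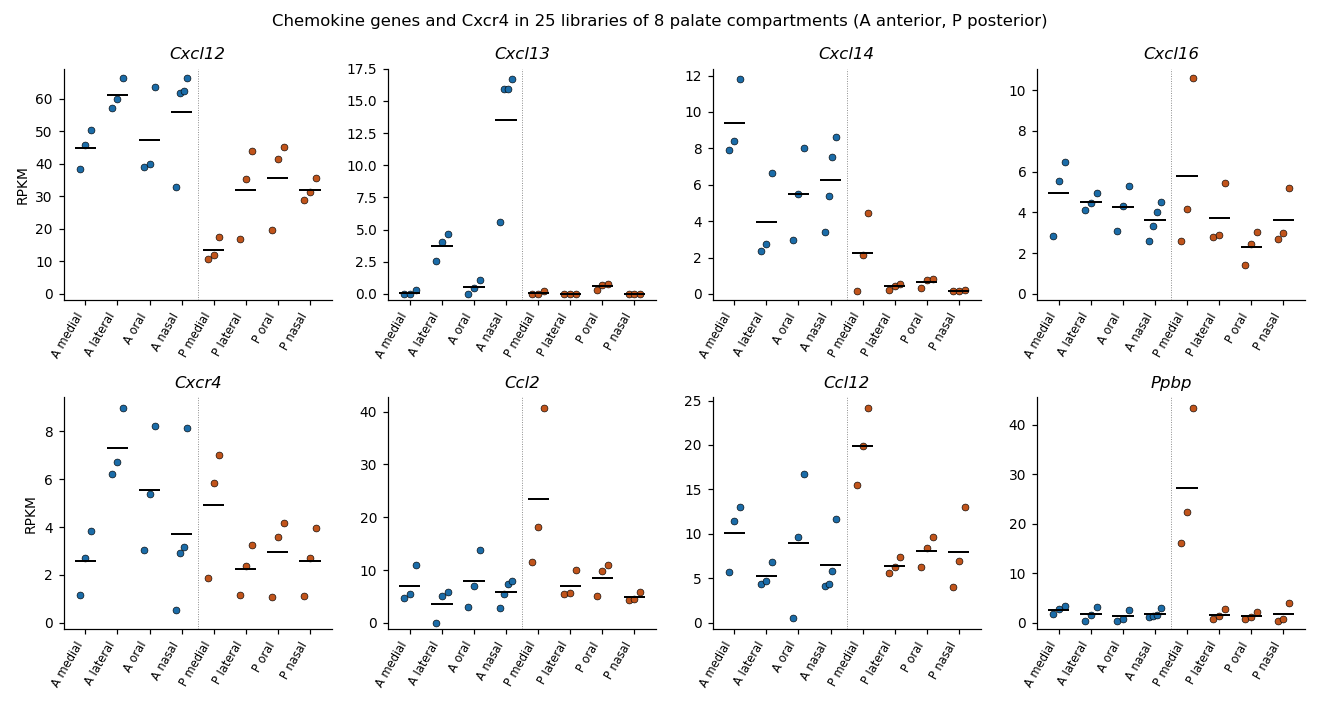
RPKM of the 8 genes in each library (points) with the mean of each compartment (bars), anterior compartments in blue on the left (A) and posterior ones in orange on the right (P), each panel on its own linear axis. Cxcl13 stood out in anterior nasal libraries at 5.57 to 16.7 RPKM, Ppbp in posterior medial libraries at 16.1 to 43.3 RPKM, and Cxcl14 lay at 0.142 to 4.43 RPKM in every posterior library.

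Cxcl12 had the highest RPKM of the 8 genes in every compartment but posterior medial, and it was higher in the anterior than in the posterior palate (gene ID 20315, chromosome 6, 117118553 to 117131386 as listed in the table, whose build is mm9 per the submitters' processing notes). The 13 anterior libraries had 52.6 ± 12.1 RPKM (SD), with a lowest value of 32.9, a median of 57.0 and a highest of 66.4. The 12 posterior libraries had 28.2 ± 12.5 RPKM (SD), with a lowest value of 10.8, a median of 30.0 and a highest of 45.2. The 2 sets overlapped between 32.9 and 45.2 RPKM. The posterior minus anterior log2 difference was -1.01 (SE 0.22, adjusted p = 0.00608), and Cxcl12 was the 1 gene called of the 3 members that met the minimum of 10 RPKM in 6 libraries, where 3.32% of 8608 genes were called. It was also the 1 member past the study's fold and p thresholds, as were 1.75% of genes, but its fold change of 2.02 fell below 2 without any one of 12 libraries and with a pseudocount of 1. With sequencing run as a covariate in the fit of all 25 libraries by compartment the difference was -0.84 (adjusted p = 0.0668).

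The anterior to posterior difference of Cxcl12 was largest, and the only 1 called, in medial tissue. Anterior medial libraries had 50.4, 38.2 and 45.6 RPKM and posterior medial libraries 12, 17.3 and 10.8 RPKM, so the groups did not overlap. In the fit of all 25 libraries by compartment the medial difference was -1.76 (SE 0.36, adjusted p = 0.0101), where 1.66% of 11913 genes were called. Without anterior medial replicate 1 the adjusted p was 0.0580. The differences in lateral, oral and nasal tissue were -1.04, -0.47 and -0.76, with adjusted p of 0.377, 0.725 and 0.366, all negative and none past the threshold. A change in this difference between medial and lateral tissue was not called (interaction 0.72, SE 0.51, unadjusted p = 0.170, adjusted p = 0.990). In all 4 pairs of compartments sequenced in 1 run, every anterior library was above every posterior library, by least in nasal tissue with 32.9 against 31.2 RPKM. These pairs were small, 1 library against 1 in oral and in nasal tissue and 1 against 2 in lateral tissue. The share of all genes with such an order was not counted. Ccl2, not called between anterior and posterior palate, had the opposite order in all 4 pairs.

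Cxcl12 was lowest in posterior medial tissue, and its posterior medial range did not overlap that of the next compartment, posterior nasal. The other 7 compartments, ordered by mean, each overlapped the next. In the posterior palate lateral libraries had 16.8, 44.0 and 35.3 RPKM, the lowest of them inside the medial range. The lateral minus medial log2 difference was 1.17 (SE 0.44, unadjusted p = 0.0356, adjusted p = 0.957). In the anterior palate lateral libraries had 57.0, 66.4 and 59.8 RPKM, all above the medial ones, and the difference was 0.45 (SE 0.14, adjusted p = 0.168).

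Cxcr4, the receptor of Cxcl12 (gene ID 12767, chromosome 1, 130484776 to 130488876), was a low gene at 0.542 to 9.0 RPKM, and a difference among its 8 compartments was not called (adjusted p = 0.821). Its highest mean was in anterior lateral tissue, with 6.72, 9.0 and 6.21 RPKM, against 3.85, 1.18 and 2.72 RPKM in anterior medial tissue. The 2 groups did not overlap, as was so for 21.3% of the 10427 genes tested there. The lateral minus medial difference was 1.59 (SE 0.39, unadjusted p = 0.00386, adjusted p = 0.0898), past the study's thresholds (a fold change above 2 with p under 0.05 before adjustment), as were 2.37% of the genes, but not past the adjusted one. Cxcr4 met the expression minimum here through the lateral libraries alone, so it could enter this comparison only by being high there. With sequencing run as a covariate in the fit of all 25 libraries the unadjusted p was 0.534.

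In the posterior palate Cxcr4 did not follow this order. Posterior medial libraries had 7.02, 1.88 and 5.86 RPKM and posterior lateral libraries 3.25, 1.16 and 2.37 RPKM, and the groups overlapped. The difference between the anterior and the posterior lateral minus medial values was not past the threshold (interaction -2.60, SE 1.07, unadjusted p = 0.0248, adjusted p = 0.958). Anterior nasal libraries ran from 0.542 to 8.16 RPKM, or 4 to 32 implied reads. The 3 genes whose log2 values were most like those of Cxcr4 over the 25 libraries were Cldn5 (Pearson's r = 0.72), which encodes a tight junction protein of endothelium, Gja4 (0.70), which encodes a gap junction protein of arteries, and Pard3b (0.68). These values come from the same libraries and share their depth. Endothelial markers, 9 of 9 above the minimum, summed to 216 to 246 RPKM in anterior lateral and 155 to 187 RPKM in anterior medial libraries, and their part in the Cxcr4 difference was not tested.

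Cxcl14 (gene ID 57266, chromosome 13, 56390006 to 56397912) was higher in anterior than posterior libraries of every compartment. The anterior libraries had 6.25 ± 2.83 RPKM (SD, n = 13) and ran from 2.38 to 11.8 RPKM. The posterior ones had 0.864 ± 1.25 RPKM (SD, n = 12) and ran from 0.142 to 4.43 RPKM, which is 1 to 21 implied reads. The posterior values over 1 RPKM were both in medial tissue, whose 3 libraries had 2.11, 4.43 and 0.142 RPKM. In nasal tissue anterior libraries had 8.61, 5.38, 3.40 and 7.54 RPKM against 0.180, 0.142 and 0.219 RPKM in the posterior ones. The nasal log2 difference was -4.42 (SE 0.66, adjusted p = 9.59e-04), where 1.91% of genes were called, and with run as a covariate the adjusted p was 0.128. All 9 libraries in which Cxcl14 reached 5 RPKM were anterior, so it could enter this fit only by being high there.

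Epithelial markers summed to 57.5 to 140 RPKM in anterior nasal and 34.6 to 66.6 RPKM in posterior nasal libraries, and the median posterior minus anterior difference of the 7 tested was -0.21 in medial, -0.84 in lateral, -0.89 in oral and -0.82 in nasal tissue, with 1 called, in lateral tissue. Their part in the Cxcl14 values was not tested.

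The medial, lateral and oral differences of Cxcl14 were -2.79, -2.87 and -2.89, with adjusted p of 0.0503, 0.0681 and 0.0955. Cxcl14 was below the minimum of 10 RPKM in 6 libraries and so was not in the comparison of all anterior with all posterior libraries. With no minimum its difference there was -3.25 (adjusted p = 1.62e-05). In the fit of all 25 libraries by compartment with run as a covariate it was -3.57 (adjusted p = 0.00948). That fit kept its minimum, which Cxcl14 met through anterior libraries alone. All 4 pairs of compartments sequenced in 1 run had every anterior library above every posterior one, in the same small pairs as for Cxcl12 and without a share over all genes. Its closest genes over the 25 libraries were Pde5a (r = 0.88), a phosphodiesterase of cyclic GMP, Tfap2a (0.88), a transcription factor of facial mesenchyme and epithelium, and Erc2 (0.84).

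Cxcl14 also differed along the medial to lateral axis in the anterior palate at the study's thresholds. Anterior medial libraries had 8.38, 7.91 and 11.8 RPKM and anterior lateral ones 6.65, 2.38 and 2.77 RPKM, which did not overlap. The lateral minus medial difference was -1.36 (SE 0.37, unadjusted p = 0.00702, adjusted p = 0.120). The unadjusted p was 0.0700 in the fit of all 25 libraries and 0.315 with run as a covariate there. Krt14, a keratin of basal epithelium, was lower in the lateral libraries too (-2.15, SE 0.28, adjusted p = 0.0104). Of the 5 epithelial markers tested there, 1 was called lower and 1 higher in lateral tissue. Mean Krt8 was 2.89 RPKM in medial and 7.75 RPKM in lateral libraries, and mean Krt18 was 2.04 and 7.31 RPKM. Epithelial markers summed to 39.4 to 85.9 RPKM in lateral and 69.4 to 121 RPKM in medial libraries. Cxcl12 and Cxcr4 were higher in the lateral libraries and Cxcl14 in the medial ones, the 3 members of the 5 tested whose groups did not overlap, against 21.3% of genes. Cxcr4 met the minimum there through the lateral libraries alone, so its place in this count was partly set by the filter. None of the 5 had an adjusted p under 0.05, against 2.51% of genes.

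**Figure D2:**
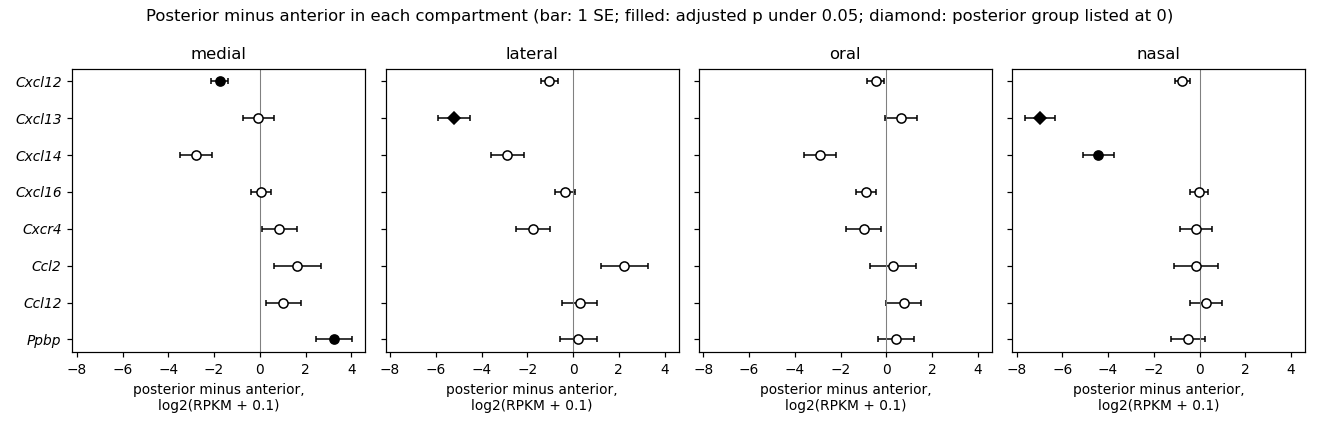
Posterior minus anterior difference in mean log2(RPKM + 0.1) for each gene in medial, lateral, oral and nasal tissue, from the fit of all 25 libraries by compartment, with 1 standard error and filled symbols where the adjusted p was under 0.05. Diamonds mark Cxcl13 in lateral and nasal tissue, where the posterior libraries are listed at 0 and the size of the difference depends on the pseudocount of 0.1, while Cxcl14 lies between -2.79 and -4.42 in all 4 panels.

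Cxcl13 was found mainly in anterior nasal tissue (gene ID 55985, chromosome 5, 96385958 to 96390087). The 4 anterior nasal libraries had 5.57, 16.7, 15.9 and 15.9 RPKM, which is 14, 62, 41.8 and 75.2 implied reads, where a read lying partly in the gene counts in part. Anterior lateral libraries had 4.63, 2.58 and 4.01 RPKM, or 9 to 15 reads. Anterior oral libraries had 1.05, 0.494 and 0 RPKM and anterior medial libraries 0, 0 and 0.265 RPKM. In the posterior palate all 3 lateral and all 3 nasal libraries are listed at 0, the medial ones had 0, 0 and 0.223 RPKM, and the oral ones had 0.292, 0.752 and 0.700 RPKM, 2.12 to 3 reads each. Ordered by mean, anterior nasal did not overlap anterior lateral, and anterior lateral did not overlap any other compartment.

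The 2 called differences of Cxcl13 between anterior and posterior tissue were in nasal (adjusted p = 4.97e-06) and lateral tissue (adjusted p = 2.47e-04). No fold change is given because the posterior groups are listed at 0. In the lateral comparison 0.865% of genes were called. The nasal adjusted p was at most 0.0442 over the alternatives. The lateral call was lost with run as a covariate (adjusted p = 0.139), and in 1 run shared by both, the anterior lateral library had 4.01 RPKM and both posterior lateral libraries were listed at 0. Cxcl13 met the minimum of 5 RPKM in 3 libraries through the anterior nasal group alone, so it could enter these tests only by being high there.

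Between anterior oral and nasal tissue Cxcl13 was the 1 member of 6 past the study's thresholds, as were 1.44% of the 10684 genes. It met the minimum through the nasal libraries alone, here and in the fit of all 25 libraries, so the results below were partly set by the filter. The oral minus nasal difference was -4.93 (SE 0.80, unadjusted p = 2.29e-04, adjusted p = 0.200), and it ranged from -3.22 to -6.15 over the alternatives, since the 3 oral libraries held 0 to 2 reads each. No gene had an adjusted p under 0.05 in that limma comparison, while 318 had an unadjusted p under 0.05. The groups did not overlap, as was so for 3.67% of genes, and nasal was higher in all 3 sequencing runs that held both. The oral minus nasal difference itself differed between anterior and posterior palate (interaction, adjusted p = 0.00160, 0.0755% of genes called), and posterior oral libraries held 2.12 to 3 reads and posterior nasal libraries none. The adjusted p of this interaction was 0.101 with run as a covariate.

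Between anterior lateral and medial tissue Cxcl13 was below the expression minimum. With no minimum the lateral minus medial difference was 4.60 (adjusted p = 0.0433), and it rests on 9 to 15 reads per lateral library against at most 1 per medial library. In the fit of all 25 libraries by compartment, which Cxcl13 entered through anterior nasal libraries alone, it was 5.04 with run as a covariate (unadjusted p = 0.00985, adjusted p = 1.0). The interaction of this difference with the anterior-posterior axis had an adjusted p of 0.0466, where 0.0923% of genes were called, and it kept an adjusted p under 0.05 (0.0103 to 0.0492) when 1 of 5 libraries was left out, anterior medial replicate 3, anterior oral replicate 1 or 3, anterior nasal replicate 1 or posterior medial replicate 1. Without any one of the other 20 it was 0.0524 to 0.188. Of 9 other alternatives, 8 lost the call (adjusted p of 0.0533 to 0.541), among them the replicate block (0.106) and run as a covariate (0.541). Genes most like Cxcl13 over the 25 libraries were Celf2 (r = 0.84), an RNA-binding protein, Tmem26 (0.79) and Prg4 (0.78), the gene of the joint lubricant lubricin.

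**Figure D3:**
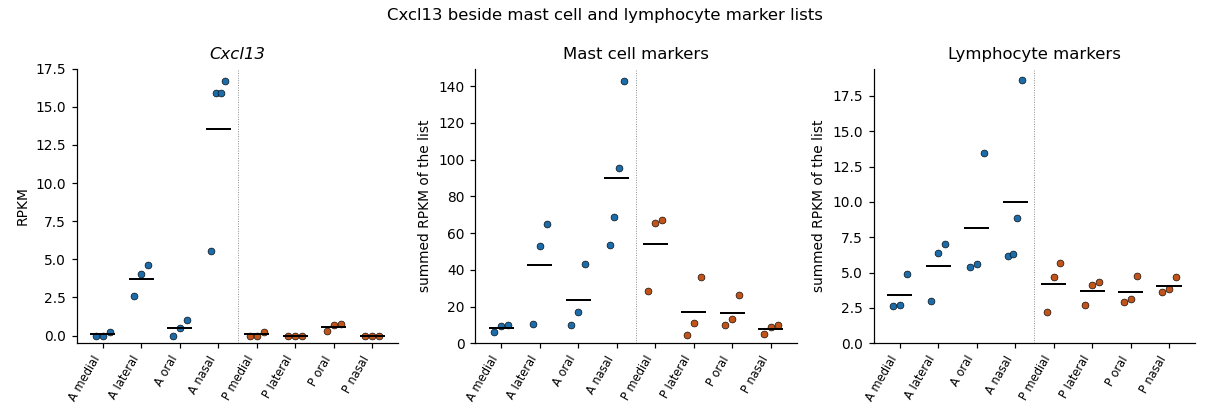
Cxcl13 in RPKM (left) beside the summed RPKM of 7 mast cell markers (middle) and 8 lymphocyte markers (right) in the 25 libraries, points being libraries (anterior blue, posterior orange) and bars compartment means. Mast cell markers summed to 53.6 to 143 RPKM in anterior nasal and 4.86 to 9.81 RPKM in posterior nasal libraries, and to 28.5 to 67.1 RPKM in posterior medial libraries, where Cxcl13 was at 0.223 RPKM or less.

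Mast cell markers moved with Cxcl13 in part. Their sum was 53.6 to 143 RPKM in anterior nasal, 10.5 to 64.8 RPKM in anterior lateral, 6.11 to 9.67 RPKM in anterior medial and 10.1 to 42.9 RPKM in anterior oral libraries. Posterior medial libraries had 28.5 to 67.1 RPKM of them with almost no Cxcl13. Of the 7 markers 3 met the minimum, Kit, Cpa3 and Cma1, and Fcer1a was at 0 in 24 libraries. Lymphocyte markers, the cells Cxcl13 is known to attract, summed to 6.17 to 18.6 RPKM in anterior nasal and 2.66 to 13.5 RPKM in the other anterior libraries, with 0 of 8 above the minimum. The part of either cell type in the Cxcl13 values was not tested.

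Ppbp was high in posterior medial tissue and low in the other 22 libraries (gene ID 57349, chromosome 5, 91197544 to 91199086). The posterior medial libraries had 22.3, 43.3 and 16.1 RPKM, which is 67 to 131 implied reads, and each of the others had 0.308 to 4.08 RPKM. Posterior lateral libraries had 1.40, 0.777 and 2.78 RPKM. The lateral minus medial log2 difference was -4.00 (SE 0.57, unadjusted p = 3.24e-04, adjusted p = 0.557). The posterior minus anterior difference in medial tissue was 3.24 (SE 0.79, adjusted p = 0.0400), with the anterior medial libraries at 1.69 to 3.40 RPKM.

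The adjusted p of the medial Ppbp difference stood close to the threshold. Among alternatives other than leaving out a library, 6 lost the call (adjusted p of 0.0507 to 0.108) and 3 kept it (0.00209 to 0.0334). It was 0.108 with run as a covariate. The adjusted p also rose past 0.05 without any of 7 libraries, namely anterior medial replicate 1 (0.0857), 2 (0.198) or 3 (0.114), anterior lateral replicate 1 (0.0519), anterior nasal replicate 2 (0.0518) or 3 (0.0529) and posterior oral replicate 1 (0.0523). In the run shared by both groups, 2 posterior medial libraries had 16.1 and 43.3 RPKM and 3 anterior medial libraries 1.69 to 3.40 RPKM. Ppbp met the expression minimum through the 3 posterior medial libraries alone. Leaving out any 1 of them took Ppbp out of the fit, so those cases are not among the 7. The genes most like Ppbp were Nmnat1 (r = 0.84), an enzyme of NAD synthesis, Emp1 (0.78), an epithelial membrane protein, and Cd52 (0.76), a surface protein of leukocytes. Without the 2 libraries farthest from the median of Ppbp these values were 0.65, 0.65 and 0.55.

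Ccl2 (gene ID 20296, chromosome 11, 81849079 to 81850954) and Ccl12 (gene ID 20293, chromosome 11, 81915347 to 81916901), neighbouring monocyte chemokines, also had their highest means in posterior medial tissue. Ccl2 had 18.1, 40.6 and 11.6 RPKM there and 9.97, 5.53 and 5.67 RPKM in posterior lateral libraries. Its lateral minus medial difference was -1.58 (SE 0.53, unadjusted p = 0.0231, adjusted p = 0.957). Ccl12 had 15.5, 19.8 and 24.2 RPKM in posterior medial and 7.38, 6.26 and 5.61 RPKM in posterior lateral libraries, a difference of -1.60 (SE 0.29, unadjusted p = 0.00131, adjusted p = 0.957). Neither pair of groups overlapped.

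All 4 members tested between posterior lateral and medial tissue, Cxcl12, Ccl2, Ccl12 and Ppbp, passed the study's thresholds, as did 1.12% of the 10324 genes, and 3 of the 4 had groups that did not overlap, against 6.62% of genes. Ppbp met the minimum here through the medial libraries alone, so that its place in both counts was partly set by the filter. No gene had an adjusted p under 0.05 in that limma comparison, and 159 had an unadjusted p under 0.05. Cxcl12 no longer passed without posterior medial replicate 1 or 3 or posterior lateral replicate 2 or 3 (unadjusted p of 0.0848 to 0.120), nor Ccl2 without posterior lateral replicate 2 (0.0720) or 3 (0.0713). These 2 compartments shared no run, and with run as a covariate 1 of the 4, Cxcl12, passed the study's thresholds. In other compartments Ccl2 ran from 0 to 13.8 RPKM, the 0 being anterior lateral replicate 1, and Ccl12 from 0.569 to 16.7 RPKM. Their differences over the 8 compartments were not past the threshold (adjusted p = 0.569 for Ccl2 and 0.823 for Ccl12).

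Across the 25 libraries Ccl2 and Ccl12 had a Spearman correlation of 0.77 and a Pearson correlation of 0.50. The genes most like Ccl2 were Mtrr (r = 0.69), Ctsc (0.69), a lysosomal protease, and Fcgr3 (0.65), an Fc receptor of myeloid cells. Without the 2 libraries farthest from the median of Ccl2 these values were 0.43, 0.51 and 0.45. Those most like Ccl12 were Msr1 (0.77), the macrophage scavenger receptor, Nfu1 (0.75) and Picalm (0.73), and without the 2 libraries farthest from its median 0.60, 0.68 and 0.58.

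**Figure D4:**
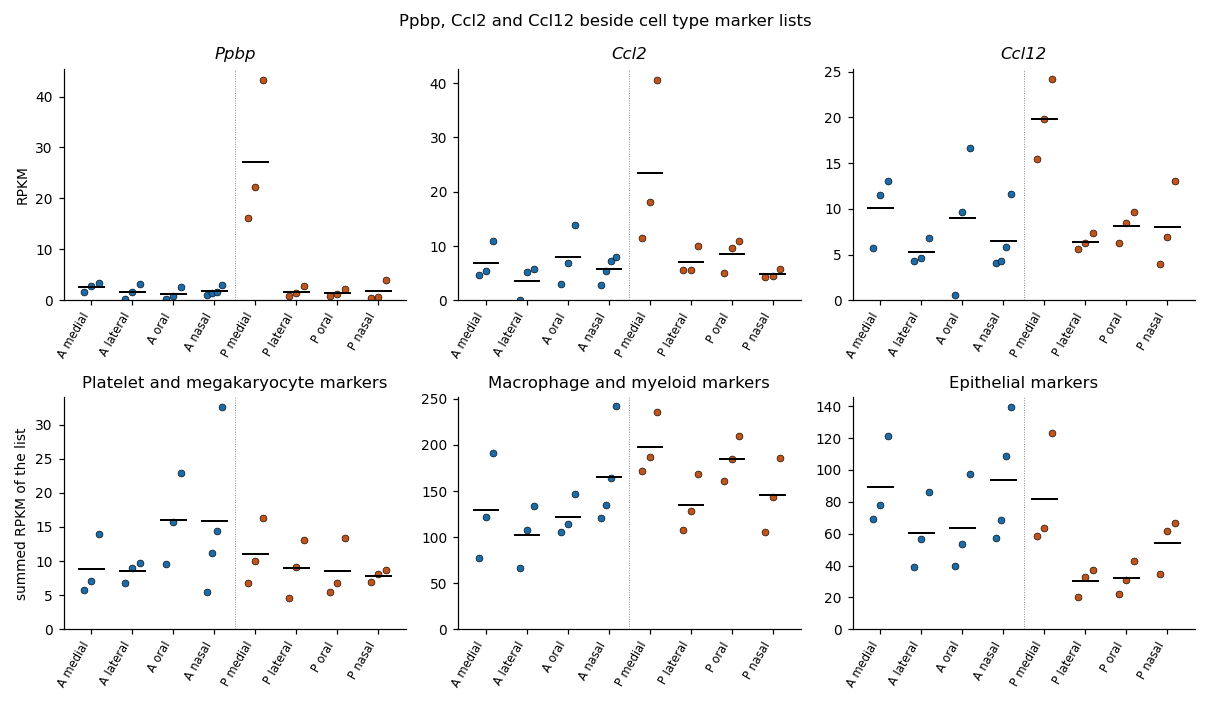
Ppbp, Ccl2 and Ccl12 in RPKM (top) above the summed RPKM of 9 platelet and megakaryocyte, 12 macrophage and myeloid, and 8 epithelial markers (bottom) in the 25 libraries, points being libraries (anterior blue, posterior orange) and bars compartment means. Posterior medial libraries had the 3 highest Ppbp values, 16.1 to 43.3 RPKM, with platelet markers at 6.80 to 16.4 RPKM, inside the range of the other compartments.

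Marker lists were read beside these genes. Platelet and megakaryocyte markers summed to 6.80 to 16.4 RPKM in posterior medial and 4.59 to 13.1 RPKM in posterior lateral libraries, and reached 32.6 RPKM in anterior nasal tissue. Itgb3 alone of the 9 met the minimum, and Gp6 was at 0 in 15 libraries. Macrophage and myeloid markers, 9 of 12 above the minimum, summed to 171 to 236 RPKM in posterior medial and 108 to 169 RPKM in posterior lateral libraries, and were 161 to 209 RPKM in posterior oral libraries, where Ppbp was 2.26 RPKM or less and Ccl12 9.61 RPKM or less. Epithelial markers, 7 of 8 above the minimum, summed to 58.8 to 123 RPKM in posterior medial and 20.2 to 36.9 RPKM in posterior lateral libraries, and red cell markers to 590 to 970 RPKM and 402 to 758 RPKM. The part of these cells in the posterior medial values was not tested.

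Cxcl16 varied little between compartments (gene ID 66102, chromosome 11, 70267736 to 70273486). It ran from 1.44 to 10.6 RPKM with a median of 4.04, its compartment means lay between 2.31 and 5.78 RPKM, and the difference over the 8 compartments had an adjusted p of 0.846. The highest library was a posterior medial one, whose group had 5.78 ± 4.24 RPKM (SD, n = 3). It was below the minimum in each comparison of 2 compartments. The posterior minus anterior differences were between -0.88 in oral and 0.05 in medial tissue, with standard errors of 0.41 to 0.43.

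Over the 8 compartments together, 4 of the 8 members differed with an adjusted p under 0.05, against 4.42% of the 11913 genes tested. Cxcl13 and Ppbp entered that fit through 1 compartment each and Cxcl14 through anterior libraries alone, so the calls of all 3 were partly set by the filter. The 4 were Cxcl13 (adjusted p = 1.76e-06), Cxcl14 (2.45e-04), Cxcl12 (0.00719) and Ppbp (0.0113). Cxcl13 (0.0147) was the 1 still called with run as a covariate. Between posterior oral and nasal tissue none of the 3 members tested was called, where 1.25% of genes were, nor was any past the study's thresholds, against 3.5%. In oral tissue none of the 8 members was called between anterior and posterior, against 0.512% of genes.

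**Figure D5:**
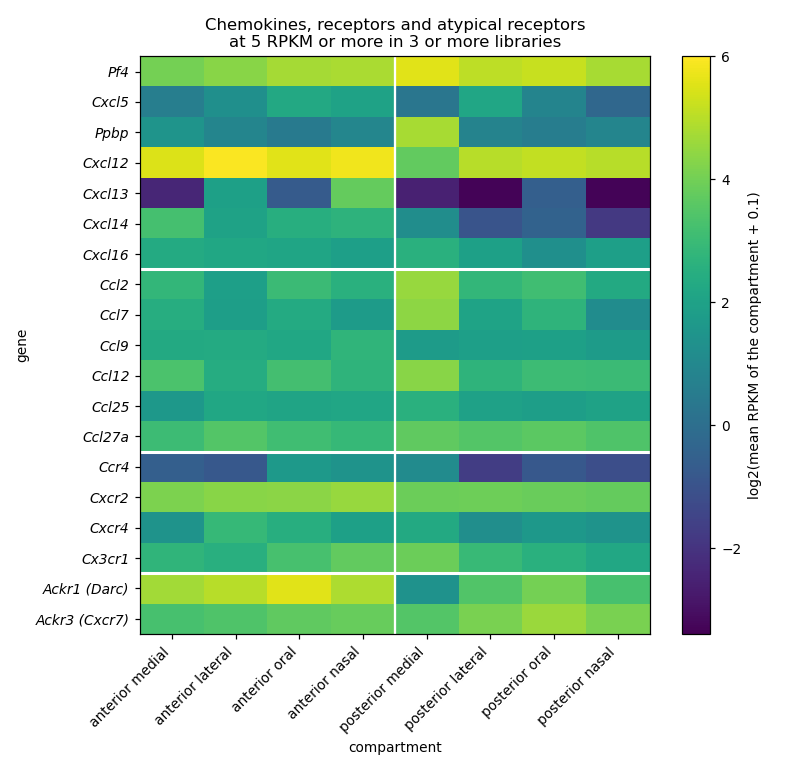
Mean level of each compartment, as log2(mean RPKM + 0.1), for the 19 chemokines, receptors and atypical receptors that reached 5 RPKM in 3 or more of the 25 libraries, white lines separating CXC ligands, other ligands, receptors and atypical receptors. Cxcl12 is the highest ligand in the 4 anterior compartments and in posterior nasal tissue, Pf4 is in the other 3, and Ackr1 (listed as Darc) falls from 26.1 to 47.5 RPKM in anterior compartments to 2.52 to 16.2 RPKM in posterior ones.

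The other genes of the chemokine system were read from fixed lists. Of 15 CXC ligands 7 met the minimum of 5 RPKM in 3 libraries, as did 6 of 23 other ligands, 4 of 19 receptors and 2 of 5 atypical receptors. Apart from the members, no ligand or signalling receptor on these lists was called in any of the comparisons of 2 compartments or of anterior with posterior tissue by its adjusted p, the calls among all genes being 0% to 3.32%. At the study's thresholds Ccl7 passed in posterior lateral minus medial tissue, Ccl25 in the medial anterior to posterior difference (9.05% of genes) and Cxcl5, Ccr4 and Cx3cr1 in the nasal one (5.62%), and Ccl25 in the lateral minus medial interaction (3.47%). Cxcr5, Cxcr6 and Ccr2, the receptors named above for Cxcl13, Cxcl16 and the CC ligands, were below the minimum. Cxcr2, the receptor for Ppbp products on neutrophils, had compartment means of 13.7 to 23.4 RPKM, and Cx3cr1, a receptor of macrophages, of 4.56 to 14.9 RPKM.

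Pf4, the platelet chemokine gene next to Ppbp, had a smaller spread of compartment means than Ppbp. Its mean was 47.2 RPKM in posterior medial tissue and 16.2 to 37.0 RPKM in the other 7 compartments, and its posterior lateral minus medial difference was -0.29 (SE 0.60, adjusted p = 0.960). Ccl7, a monocyte chemokine of the same cluster as Ccl2 and Ccl12, had a mean of 21.0 RPKM in posterior medial tissue and 2.17 to 6.45 RPKM elsewhere. Its difference was -2.17 (SE 0.77, unadjusted p = 0.0291, adjusted p = 0.957), with groups that did not overlap.

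Of the atypical receptors, which bind chemokines without signalling through G proteins, 2 met the minimum. Ackr1, a chemokine sink of venules and red cells, was lower in the posterior palate, with a log2 difference of -2.19 (SE 0.44, adjusted p = 0.00342) over all libraries and -3.87 (SE 0.70, adjusted p = 0.00390) in medial tissue. Ackr3, listed as Cxcr7, which removes Cxcl12, had compartment means of 9.55 to 14 RPKM in the anterior and 11.2 to 23.9 RPKM in the posterior palate, a difference of 0.56 (SE 0.18, unadjusted p = 0.00490, adjusted p = 0.10). Of 16 genes of Cxcr4 signalling and chemokine processing, 13 met the minimum and none had an adjusted p under 0.05 in any comparison. At the study's thresholds Gnai1 was higher in posterior medial and posterior lateral tissue (9.05% and 3.4% of genes passed), Adrbk2 lower in posterior medial and Grk5 lower in posterior nasal tissue, and Adrbk2 passed in the lateral minus medial interaction. The highest were Gnai2 and Gnai3, subunits of the inhibitory G proteins that Cxcr4 couples to, with compartment means of 78.1 to 135 and 57.1 to 71.5 RPKM.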

How the data were processed

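RNA from laser captured compartments was amplified (NuGEN Ovation), tagmented with Nextera and sequenced on an Illumina instrument as single reads. The authors deposited 1 table of RPKM values for 37406 genes in 25 libraries, made with GeneSpring from uniquely aligned reads without duplicates. TopHat and mm9 are named in the submitters' processing notes. Read counts were not used here. Totals of the reads behind the RPKM values (1.64 to 6.56 M per library, not the reads sequenced) and reads per gene were implied from the spacing of low values. For Cxcl16 no transcript length could be found this way. Amplification before sequencing means that reads are not independent molecules.

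Log2(RPKM + 0.1) was fitted with limma 3.58.1 in R 4.3.3, without further scaling. Pairs of compartments were fitted on their own libraries keeping genes that reached 5 RPKM in 3 of them, all posterior against all anterior libraries keeping genes that reached 10 RPKM in 6, and compartment-wise contrasts, interactions and the difference among compartments in 1 fit of 25 libraries. The other calls followed the study's thresholds. The procedure was tested on simulated data. Groups and replicate numbers came from the sample titles, and sequencing runs from alignment names in the column headers of the study's supplementary table. Same-numbered anterior oral and nasal libraries had correlations of 0.24, 0.21 and 0.13 between their deviations from the group means. Posterior oral and nasal ones had 0.22, -0.08 and 0.42. No pairing is stated in the titles or the paper, so whether these numbers pair the samples is not known. The replicate block changed no call between anterior oral and nasal tissue. P-values measure the spread between these libraries only.

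Named were the 8 members, up to 6 genes of each chemokine list by mean level, the 3 genes most correlated with each member, and cell type markers. The members and lists were chosen with earlier results of these data known. Cxcr5, Cxcr6, Ccr2, Gnai1, Adrbk2 and Grk5 fall outside this rule and were named after their values were seen. Alternatives were other pseudocounts and expression minima, centring, quantile normalization, a mean-variance trend, the replicate number or sequencing run in the fit, 1 fit of all libraries, and leaving out each library. Figures were made with matplotlib 3.10.9.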

Additional observations from a re-analysis of the deposited data

Results flagged for a closer look

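In the 4 anterior nasal libraries, Cxcl12 had 1 library apart from the rest, at 32.9 RPKM against 61.9 to 66.2 RPKM in the other 3, a gap of 0.868 of the group's range. It was replicate 4, the anterior nasal library whose run also held a posterior nasal library. Cxcl13 had another library apart, replicate 1, at 5.57 RPKM against 15.9 to 16.7 RPKM, a gap of 0.930 of the range. Chance flags about 1 in 20 groups of this size, and 8 such groups, 1 for each gene, were examined.

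The Cxcl13 differences changed along the anterior-posterior axis. The interaction test had an adjusted p of 0.0466 for lateral minus medial and 0.00160 for oral minus nasal tissue. In anterior tissue the lateral and nasal libraries were the higher ones, while posterior lateral and posterior nasal libraries are listed at 0. Both values rest on groups at or near 0 reads. Both calls were lost with sequencing run as a covariate (adjusted p = 0.541 and 0.101), and 8 of 9 alternatives other than leaving out a library ended the lateral minus medial one.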

How the results depend on the processing

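Of 511 values of 19 gene results under the alternatives, 433 kept their direction and side of the threshold, 78 kept the direction only and 0 reversed. Fits in which a gene fell below the expression minimum are not among the 511, such as those of Ppbp without a posterior medial library. Counts below are of members with an adjusted p under 0.05 (adjusted) or past the study's thresholds (study), and the cause of each change was not tested unless fewer or more genes were fitted.

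With sequencing run as a covariate the counts were 2 in place of 5 (within compartments), 1 in place of 4 (8 compartments), 0 in place of 2 (interactions), 1 in place of 4 (posterior lateral minus medial, study), 1 in place of 2 (anterior lateral minus medial, study, the 1 being Cxcl13 in place of Cxcl14 and Cxcr4), 1 in place of 0 (posterior oral minus nasal, study), and, for posterior minus anterior, 2 adjusted and 3 study in place of 1 each. In 1 fit of all 25 libraries posterior minus anterior had 3 and 3, and anterior lateral minus medial, posterior lateral minus medial, anterior oral minus nasal (adjusted) and posterior oral minus nasal (study) had 1 each in place of 0. Without a minimum, and with a minimum of 1 RPKM, posterior minus anterior had 3 and 3, anterior lateral minus medial had 1 adjusted and the interactions 1; without a minimum posterior oral minus nasal had 2 (study). A pseudocount of 1 gave posterior minus anterior 0 (study). The interactions numbered 1 with a pseudocount of 0.01 or centring, and 0 with quantile normalization or a trend. Quantile normalization gave posterior lateral minus medial 1 adjusted.

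With the replicate number as a block the interactions numbered 1 in place of 2 and the within-compartment calls 4 in place of 5, the latter losing Ppbp in medial tissue (adjusted p = 0.0648), and the other counts were equal. Same-numbered samples are not stated to be pairs in any comparison, though some shared a sequencing run, such as posterior oral and nasal replicates 1 and 2.

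With 1 library left out, adjusted counts ran from 0 to 1 in anterior and 0 to 0 in posterior lateral minus medial tissue, 0 to 0 in both oral minus nasal comparisons, 1 to 1 in posterior minus anterior, 3 to 7 within compartments, 1 to 2 for the interactions and 3 to 4 over the 8 compartments. Study counts ran from 1 to 3, 2 to 4, 1 to 1, 0 to 1 and 0 to 1 in the 5 comparisons in the order of the previous sentence. The posterior minus anterior difference of Cxcl12 lay between -1.09 and -0.84 over all alternatives. It fell below a 2-fold change without any of 12 libraries, and in those 12 fits its adjusted p was 0.0129 or less. At -0.84, with run as a covariate, the adjusted p was 0.0668 and the call was lost. The posterior values of Cxcl13 and Cxcl14 rest on few reads, most posterior libraries holding 6 implied reads or fewer of each.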
